A study of Mus musculus with 10 samples.

Results

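The sarcomere and Z-disc genes described here are 31 genes of heart muscle, chosen by name as components, anchors and chaperones of the contractile filaments, out of 78298 genes in the deposited table. All 31 identifiers were found once in the GENCODE annotation of GRCm39, and all 31 passed the filter on low counts. Their RNA was measured by bulk RNA sequencing in 5 heart samples of female mice with a germline p38δ knockout and 5 of female wild-type mice, on a C57BL/6J background. Both groups had received doxorubicin once, intraperitoneally, at 30 mg/kg, and the hearts were taken 72 h later. No undosed heart was analysed here. The labels do not say that each library came from a separate animal, so the spread behind each p-value is that between samples and may be technical. Doxorubicin is an anthracycline used against cancer that also damages heart muscle, and p38δ, the product of Mapk13, is a kinase of the stress-responsive MAP kinase family. A germline deletion is not restricted to cardiomyocytes. The libraries held 21403189 to 33477767 counts in the knockout group and 22082289 to 40627138 counts in the wild-type group.

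The sarcomere is the repeating unit of the myofibril. Thick filaments of myosin, with their light chains and binding proteins, slide along thin filaments of actin, tropomyosin and troponin, and calcium binding to troponin C starts each contraction. Titin spans from the Z-disc, where thin filaments are anchored by α-actinin, to the M-band, where myomesins cross-link the thick filaments. Desmin filaments hold neighbouring myofibrils in register, small heat shock proteins protect filaments from unfolding, and mutations in many of these genes are known causes of inherited cardiomyopathy. Anthracyclines are known to disturb myofibril structure in cardiomyocytes.

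Several libraries need description before the results. Mapk13 had 12, 10, 10, 15 and 9 counts in knockout libraries 1 to 5, against 292, 5, 2, 1 and 4 counts in wild-type libraries 1 to 5, so the targeted gene could not serve as a check of genotype. Every direction below is between the libraries labelled knockout and those labelled wild type. Markers of ventricular cardiomyocytes were high in all libraries, with a summed level of 32262 to 56727 CPM (counts per 1e6 library counts, scaled with TMM factors) in the knockout group and 23353 to 45998 CPM in the wild-type group. Wild-type library 1 also held markers of other tissues. Its 10 airway and alveolar markers summed to 1145 CPM, against 0.476 to 3.66 CPM in the knockout libraries and 0.409 to 90.5 CPM in the other wild-type libraries. Its 10 atrial markers summed to 1458 CPM, against 51.7 to 139 CPM in the knockout libraries and 48.3 to 334 CPM in the other wild-type libraries. The 12 fast skeletal muscle markers include Ckm, the muscle creatine kinase that heart makes in quantity. Without Ckm the other 11 summed to 947 CPM there, against 6.02 to 35.1 CPM in the knockout libraries and 6.02 to 11.1 CPM in the other wild-type libraries. Its 9 fat markers summed to 473 CPM, against 25.7 to 41.5 CPM in the knockout libraries and 28.5 to 46.9 CPM in the other wild-type libraries. The brown fat gene Ucp1 was at 45.4 CPM in wild-type library 1, at 0.155 CPM or less in the other 9 libraries, and at 0 counts in 3 of the knockout and 3 of the wild-type libraries. Its macrophage markers summed to 540 CPM, against 128 to 173 CPM in the knockout libraries and 125 to 192 CPM in the other wild-type libraries, and its fibroblast markers to 3023 CPM, against 1283 to 1555 CPM in the knockout libraries and 1501 to 1784 CPM in the other wild-type libraries. Its mesothelial markers summed to 169 CPM, against 20.9 to 41.7 CPM in the knockout libraries and 41.2 to 55.7 CPM in the other wild-type libraries. All 11 macrophage, all 10 mesothelial and 9 of 10 fibroblast markers had a log2 fold change below 0, where 46.6% of all genes tested were above 0. By edgeR 0 of these markers were called, against 0.353% of all genes. Apart from wild-type library 1, the summed ranges of the groups overlapped in each of these lists, though narrowly for the mesothelial markers. T and B cell markers summed to 16.0 CPM in knockout library 2 and 12.5 CPM in wild-type library 1, and to at most 2.17 CPM in the other 8 libraries. Of the first 4 lists, 1 airway, 6 atrial, 8 skeletal muscle and 3 fat markers passed the filter on low counts. Between genotypes 0 of them were called by edgeR, against 0.353% of all genes. Knockout library 4 stood apart in its cardiac myosins and in some other marker genes. Nppb was at 63.8 CPM there, against 8.85 to 15.6 CPM in the other knockout libraries. The smooth muscle marker Acta2 was at 124 against 19.8 to 25.4 CPM, and the fibroblast marker Col3a1 at 99.8 against 23.8 to 39.7 CPM. Others of these lists were not high there, with Tagln at 9.18 against 6.24 to 12.4 CPM and Dcn at 504 against 552 to 593 CPM. Myh6, the α-myosin heavy chain gene, was at 5021, 5038, 10782, 24290 and 7680 CPM in knockout libraries 1 to 5. Myh7, the β-myosin heavy chain gene, was at 7241, 8944, 7436, 2273 and 6583 CPM in the same libraries, so library 4 had the highest Myh6 and the lowest Myh7 of the group. Wild-type libraries 1 to 5 had 6233, 7030, 6998, 13948 and 13683 CPM of Myh6 and 3050, 5189, 6508, 5965 and 4525 CPM of Myh7. The members' fold changes are therefore given with and without knockout library 4 and wild-type library 1, as are counts over lists of related genes. The fit without these 2 libraries still held wild-type libraries 2 and 3. Wild-type library 3 had the 90.5 CPM of airway and alveolar markers, and wild-type library 2 the 334 CPM of atrial markers.

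Per kilobase of canonical transcript, a scale on which levels of different genes can be compared, the 31 genes spanned more than 2 orders of magnitude. Tnnt2 (cardiac troponin T) was highest, at 4229 ± 349 CPM per kilobase in knockout and 4167 ± 1075 CPM per kilobase in wild-type hearts (SD, n = 5 each). The regulatory light chain gene Myl2 followed, at 3817 ± 1727 CPM per kilobase in knockout and 3596 ± 1449 CPM per kilobase in wild-type hearts. Tnni3, Tpm1, Myl3 and Tnnc1 came next, with means over all 10 libraries of 1860, 1840, 1717 and 1243 CPM per kilobase. The short, abundant filament subunits thus headed the order, and the spread of Tnnt2 and Myl2 overlapped, as did that of Tnni3, Tpm1 and Myl3. Ttn, whose canonical transcript of 107543 bases was the longest of the list, ranked in place 24 with 32.7 CPM per kilobase. The lowest were Synpo2l (13.7), Mypn (12.9) and Myh7b (9.99 CPM per kilobase), whose spreads also overlapped. With the union of all annotated exons as the length, the span was narrower. Tnnt2 stayed highest at 836 CPM per kilobase and Myh7b lowest at 9.16 CPM per kilobase. Tnnc1 moved to place 2 and Csrp3 moved from place 8 to place 14.

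**Figure D1:**
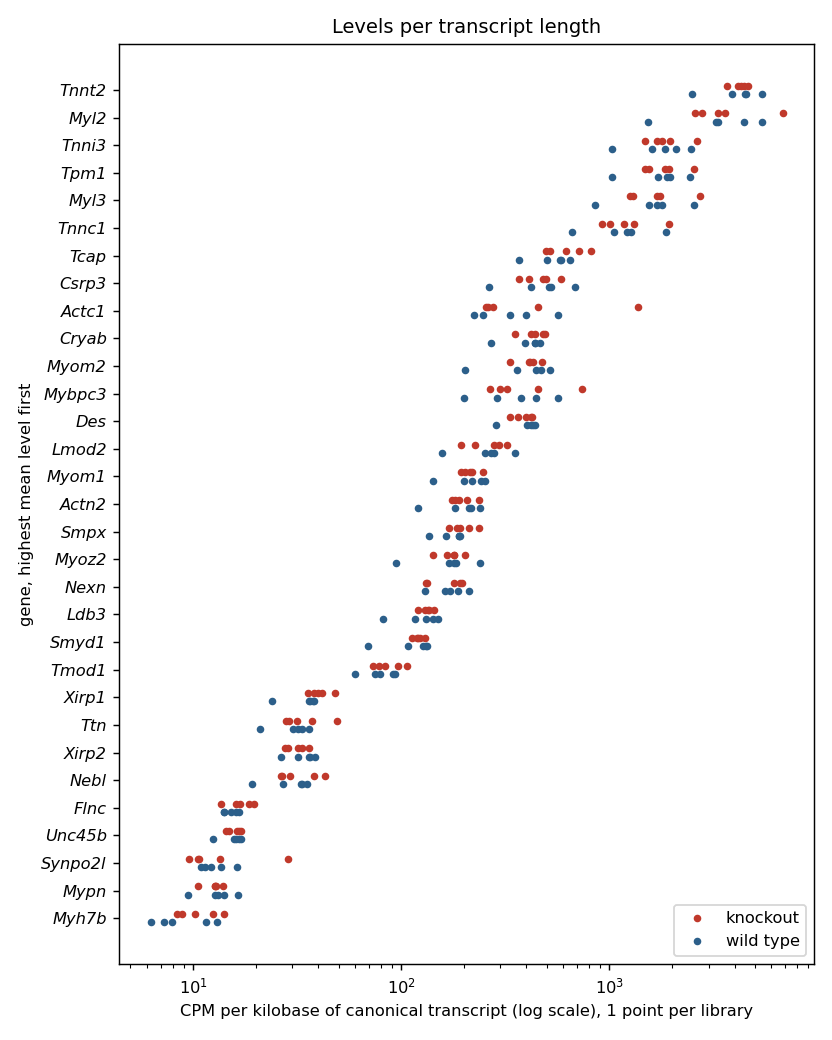
CPM per kilobase of canonical transcript (log axis) for each of the 31 genes, ordered by mean level, with 1 point for each knockout (red) and wild-type (blue) library. The 2 groups overlap in every gene, Tnnt2 and Myl2 lead, and 1 knockout library stands far to the right for Actc1.

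None of the 31 genes passed the test between knockout and wild-type hearts. By edgeR's quasi-likelihood test with Benjamini-Hochberg adjustment over all genes, 0 of 31 had an adjusted p under 0.05, against 0.353% of the 16700 genes tested, and 0 of 31 had an unadjusted p under 0.05, against 6.86% of all genes. DESeq2 called 0 of 31, against 0.707% of all genes, and limma voom with quality weights called 0 of 31, against 0.527%. Both gave 0 unadjusted p under 0.05 among the members, against 7.22% of all genes by DESeq2 and 8.44% by voom. The 5 knockout and 5 wild-type values overlapped in every member, while they were separate in 1.78% of all genes tested. The median log2 fold change of knockout over wild type was 0.08 over the members, between -0.10 and 0.57, and -0.01 over all genes. Of the members, 26 had a log2 fold change above 0, against 46.6% of all genes. That direction was not stable, since without knockout library 4 and wild-type library 1 only 6 were above 0, against 50% of all genes, and with all libraries 17 were above 0 on library totals alone, 8 with voom quality weights and 6 with scaling to ventricular markers. Scaling by totals and by ventricular markers also moved the median log2 fold change of all genes, to -0.12 and -0.20. In 30 of the 31 genes the 95% interval of the fold change lay within 2-fold either way, and in Actc1 it was 0.699 to 3.14. The intervals differed in width between genes, and differences inside a gene's own interval were not resolved. In bulk heart RNA, fewer cardiomyocytes and less RNA per cardiomyocyte cannot be told apart.

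**Figure D2:**
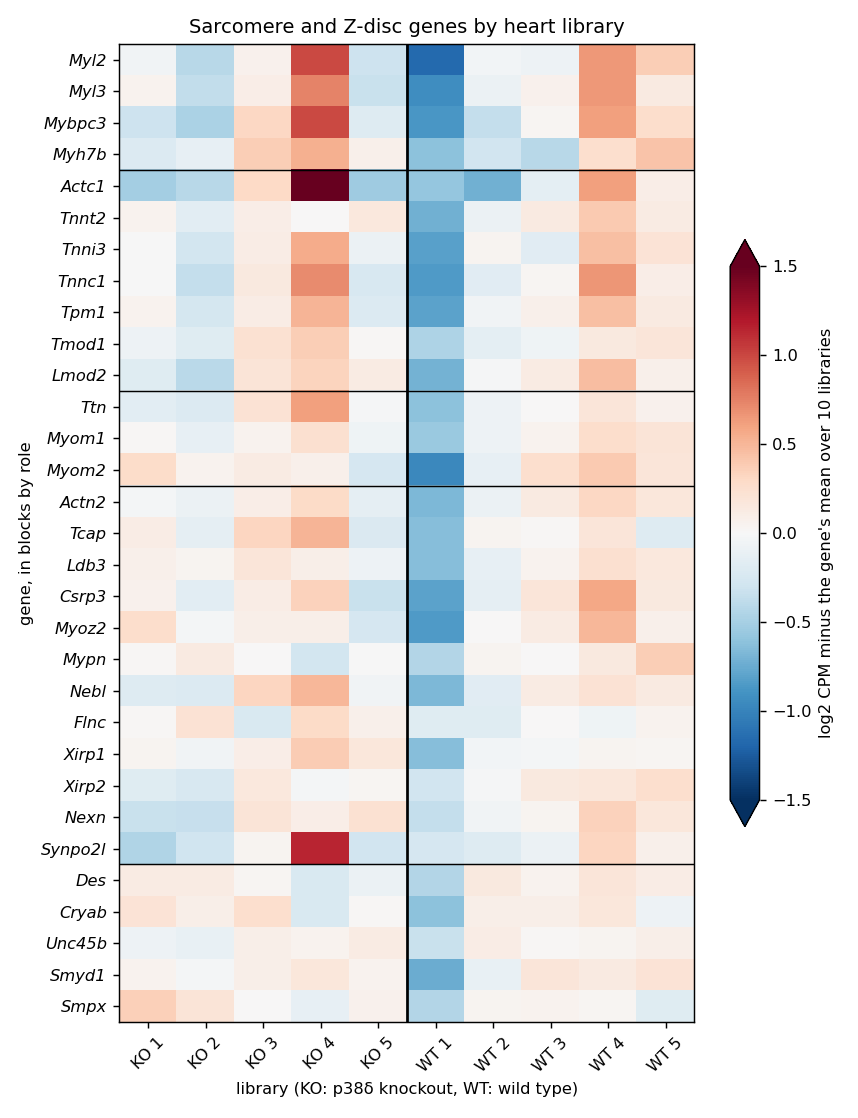
Each row is a gene and each column a library, knockout libraries left of the line and wild-type libraries right of it; colour gives log2 CPM minus that gene's mean over the 10 libraries. Wild-type library 1 is blue in nearly all rows, knockout library 4 is red in most of the thick and thin filament rows, and no row separates the groups.

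Among thick filament genes, Myl2 (ENSMUSG00000013936, chromosome 5, 122238848 to 122251545, GRCm39) encodes the ventricular regulatory light chain, which tunes the force of the myosin head. It stood at 2751, 2134, 2975, 5645 and 2297 CPM in knockout libraries 1 to 5, against 1268, 2769, 2703, 4474 and 3672 CPM in wild-type libraries 1 to 5. The groups overlapped throughout, with the highest value in knockout library 4 and the lowest in wild-type library 1. Its log2 fold change was 0.09 with a standard error of 0.34 (adjusted p = 0.97 by edgeR). Myl3 (chromosome 9, 110570929 to 110599396), the essential light chain gene, had 1644 ± 560 CPM in knockout and 1591 ± 573 CPM in wild-type hearts. Mybpc3 (chromosome 2, 90948489 to 90966861) encodes cardiac myosin-binding protein C, a brake on cross-bridge cycling. It stood at 1235, 1104, 1891, 3046 and 1340 CPM in the knockout libraries and at 834, 1198, 1559, 2346 and 1837 CPM in the wild-type libraries, the same pair of libraries holding the extremes. Myh7b, a slow-type myosin heavy chain gene that hosts a muscle microRNA, had 66.9 ± 14.8 CPM in knockout and 56.9 ± 18.0 CPM in wild-type hearts. Its exons overlap those of Trpc4ap and Gss on the opposite strand, and Trpc4ap had 149% of the Myh7b counts, so with the strand setting not given in the sources used here its level is uncertain.

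Among thin filament genes, Tnnt2 (chromosome 1, 135763738 to 135780315) stood at 7609, 6550, 7852, 7349 and 8191 CPM in the knockout libraries, against 4449, 6910, 8042, 9603 and 7997 CPM in the wild-type libraries. The coefficient of variation of Tnnt2 was 8.26% in the knockout and 25.8% in the wild-type group, and 9.53% and 13.2% in these groups without knockout library 4 and wild-type library 1. The fold change had a 95% interval of 0.749 to 1.38. Tnni3, the inhibitory subunit of cardiac troponin, had 1754 ± 405 CPM in knockout and 1654 ± 493 CPM in wild-type hearts. Tnnc1, the calcium-binding subunit, had 917 ± 290 CPM in knockout and 875 ± 317 CPM in wild-type hearts. Tpm1, the tropomyosin that covers the myosin sites on actin, had 4103 ± 923 CPM in knockout and 3958 ± 1119 CPM in wild-type hearts. All 3 had their lowest value in wild-type library 1 and their highest in knockout library 4.

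Actc1 (ENSMUSG00000068614, chromosome 2, 113876266 to 113884043), cardiac α-actin, was the most variable of the 31 genes in the knockout group. Its levels were 949, 1008, 1660, 4990 and 931 CPM in knockout libraries 1 to 5, against 901, 816, 1221, 2057 and 1447 CPM in wild-type libraries 1 to 5. Knockout library 4 was well above the other 9, which overlapped. The log2 fold change of 0.57 with a standard error of 0.49 was the largest of the list (adjusted p = 0.828 by edgeR), and it was -0.28 with a standard error of 0.31 without knockout library 4 and wild-type library 1. Reads of Actc1 can be shared with the skeletal actin gene Acta1, which stood at 3.74 to 20.9 CPM in the knockout libraries and at 206 CPM in wild-type library 1. At the filament ends, Tmod1, which caps the pointed end, had 279 ± 44.3 CPM in knockout and 254 ± 43.8 CPM in wild-type hearts. Lmod2, a leiomodin that lengthens thin filaments, had 630 ± 124 CPM in knockout and 629 ± 168 CPM in wild-type hearts, the smallest log2 fold change of the list at 0.0011.

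Titin and the myomesins did not pass either. Ttn (ENSMUSG00000051747, chromosome 2, 76534136 to 76812891) stood at 3094, 2998, 3992, 5262 and 3395 CPM in the knockout libraries and at 2258, 3267, 3450, 3896 and 3605 CPM in the wild-type libraries. Titin acts as a molecular spring and ruler, and gene counts cannot tell its stiff and compliant splice forms apart. The log2 fold change was 0.19 with a standard error of 0.20 (adjusted p = 0.863 by edgeR), and -0.07 with a standard error of 0.10 without the 2 libraries. Myom1 (chromosome 17, 71309628 to 71434802) was the single member on the chromosome that carries Mapk13. It had 1229 ± 119 CPM in knockout and 1206 ± 248.5 CPM in wild-type hearts, with a log2 fold change of 0.03. Its exons share 246 bases with those of Myl12a on the opposite strand. Myom2, the other M-band cross-linker, had 2251 ± 284 CPM in knockout and 2177 ± 673 CPM in wild-type hearts.

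The 12 Z-disc genes had log2 fold changes from -0.10 to 0.24, 8 above 0 and 4 below, with a median of 0.06. Actn2, the α-actinin that cross-links actin at the Z-disc, stood at 1213, 1166, 1325, 1512 and 1130 CPM in the knockout libraries, against 774, 1167, 1360, 1538 and 1392 CPM in the wild-type libraries. Apart from wild-type library 1 the Actn2 values of both groups covered about the same range. Xirp1 (ENSMUSG00000079243, chromosome 9, 119842821 to 119852664), a Xin repeat protein of the intercalated disc, had the smallest p of the list. Its levels were 207, 194, 216, 261 and 226 CPM in the knockout libraries and 130, 196, 198, 208 and 205 CPM in the wild-type libraries. The Xirp1 groups overlapped between 194 and 208 CPM, and 3 knockout libraries lay above that range and wild-type library 1 below it. The log2 fold change was 0.24 with a standard error of 0.13 (adjusted p = 0.748 by edgeR), and the exact two-sided permutation test of log2(CPM + 1) gave p = 0.0952, where the smallest p that 5 against 5 libraries allow is 0.00794. Without the 2 libraries its log2 fold change was 0.07.

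Tcap, the titin cap that ties titin at the Z-disc, had 600 ± 127 CPM in knockout and 510 ± 102 CPM in wild-type hearts, with a log2 fold change of 0.24 that was 0.02 without the 2 libraries. Flnc, filamin C, which links Z-discs to the membrane and gathers at damaged myofibrils, stood at 148, 169, 125, 179 and 155 CPM in the knockout libraries and at 129, 129, 147, 140 and 152 CPM in the wild-type libraries. In wild-type library 1 it was at 0.908 of the mean of the other wild-type libraries, the highest such ratio of the list. Csrp3, the muscle LIM protein, had 470 ± 84.6 CPM in knockout and 482 ± 155 CPM in wild-type hearts. Xirp2 was the member with the lowest log2 fold change, at -0.10 with a standard error of 0.12, and was below 0 under all 20 alternative settings. It had 377 ± 41.5 CPM in knockout and 406 ± 56.9 CPM in wild-type hearts. Ldb3 (the PDZ and LIM protein cypher), Myoz2 (calsarcin-1, which binds calcineurin), Nebl (nebulette) and Mypn (myopalladin) had log2 fold changes of 0.10, 0.01, 0.14 and -0.07. Nexn, nexilin, an actin-binding protein, had 475 ± 91.1 CPM in knockout and 494 ± 87.5 CPM in wild-type hearts, and its exons share 2367 bases with Fubp1 on the opposite strand. Tmod1 and Unc45b likewise share 1305 and 1633 exon bases with Tstd2 and Nle1.

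Synpo2l (ENSMUSG00000039376, chromosome 14, 20707961 to 20718422), a Z-disc actin-associated protein, resembled Actc1 in knockout library 4. It stood at 52.5, 58.0, 73.8, 158 and 58.7 CPM in the knockout libraries, against 60.0, 62.6, 67.4, 89.2 and 75.4 CPM in the wild-type libraries. The other 4 knockout values, 52.5 to 73.8 CPM, lay below or within the wild-type range. Its log2 fold change was 0.18 with a standard error of 0.29, and -0.27 with a standard error of 0.12 without the 2 libraries (adjusted p = 0.634 by edgeR).

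Desmin and the 4 genes grouped with it had coefficients of variation of 5.19% to 12.9% in knockout and 11.6% to 23.6% in wild-type hearts. Without knockout library 4 and wild-type library 1 they were 3.85% to 10.6% in knockout and 3.44% to 9.39% in wild-type hearts, and 4 of the 5 genes then had the larger value in knockout hearts. Des (chromosome 1, 75320511 to 75345223), the muscle intermediate filament, stood at 1331, 1324, 1246, 1041 and 1144 CPM in the knockout libraries and at 899, 1350, 1260, 1379 and 1317 CPM in the wild-type libraries. Cryab, the αB-crystallin that protects desmin and titin from unfolding, stood at 808, 742, 828, 594 and 709 CPM in the knockout libraries and at 455, 745, 744, 784 and 663 CPM in the wild-type libraries. In both genes knockout library 4 was the lowest of its group, opposite to its place in Myl2 and Actc1. Cryab shares 757 exon bases with Hspb2 on the opposite strand. Unc45b, the myosin-folding co-chaperone, had 130 ± 9.4 CPM in knockout and 127 ± 14.8 CPM in wild-type hearts, and its fold change had a 95% interval of 0.880 to 1.18, the narrowest of the list. Smyd1, a muscle methyltransferase needed for thick filament assembly, had 400 ± 20.7 CPM in knockout and 374 ± 88.2 CPM in wild-type hearts. Smpx (chromosome X, 156481900 to 156536688), a small stretch-associated muscle protein, stood at 258, 229, 202, 185 and 209 CPM in the knockout libraries and at 148, 207, 208, 206 and 178 CPM in the wild-type libraries. Its log2 fold change was 0.19 with a standard error of 0.12 (adjusted p = 0.756 by edgeR) and 0.17 with a standard error of 0.09 without the 2 libraries, the highest of the list in that fit.

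Leaving out knockout library 4 and wild-type library 1 changed the sign of 20 members but 0 of 31 were called, against 0.521% of the 16494 genes tested in that fit. The members' median log2 fold change was then -0.12, between -0.42 and 0.17, with -2.75e-05 over all genes. Of the members, 2 had an unadjusted p under 0.05, against 7.8% of all genes, and these were Myl2 and Synpo2l. Myl2 had 2484 ± 381 CPM in the remaining knockout and 3323 ± 806 CPM in the remaining wild-type libraries (n = 4 each), a log2 fold change of -0.42 with a standard error of 0.17 (adjusted p = 0.562 by edgeR). All 7 thin filament genes and all 3 of titin and the myomesins were below 0 in this fit, as were 9 of 12 Z-disc genes. Leaving out wild-type library 1 alone left 11 members above 0, and leaving out knockout library 4 alone left 15, against 24 to 29 without any other single library.

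**Figure D3:**
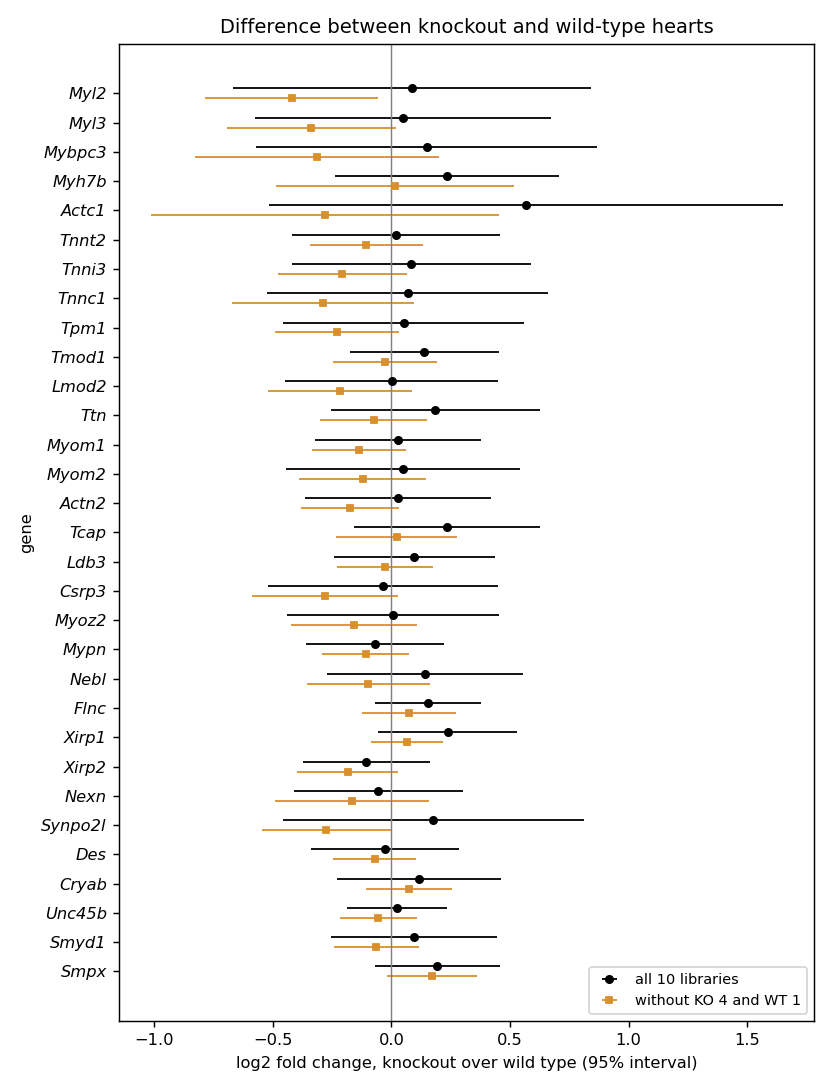
Log2 fold change of knockout over wild type with its 95% interval for each gene, from all 10 libraries (black circles) and without knockout library 4 and wild-type library 1 (orange squares). Most points move left across 0 when the 2 libraries are left out, and the black intervals all include 0. Xirp2 is lowest among the black points, at -0.10, and Actc1 highest, at 0.57.

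Wild-type library 1 was the lowest of the 10 libraries in 28 of the 31 genes, and knockout library 4 was the highest in 15. In wild-type library 1, 28 members were under 0.75 of the mean of the other wild-type libraries. They were as low as 0.373 for Myl2, 0.450 for Myl3 and 0.452 for Myom2. On CPM without TMM factors it was lowest in 18 genes, and knockout library 4 was highest in 14. Wild-type library 1 had the highest TMM factor, 1.302, and the lowest share of mitochondrially encoded counts, 23.0% against 28.5% to 30.9% in the knockout libraries and 28.3% to 30.0% in the other wild-type libraries. It also held the markers of other tissues given above, and their part in its low values was not tested.

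In knockout library 4 the members did not move by a common factor. Actc1 was at 4.39 times the mean of the other knockout libraries, Synpo2l at 2.59, Myl2 at 2.22, Mybpc3 at 2.19 and Myl3 at 1.83 times. Tnnt2 was at 0.973, Des at 0.825, Smpx at 0.823, Mypn at 0.806 and Cryab at 0.769 times that mean. In all, 8 members were at 1.5 times or more and 5 were below the mean. Ratios of counts within a library need no scaling and showed the same unevenness. Actc1 had 0.679 counts for each Tnnt2 count in knockout library 4, against 0.114 to 0.211 in the other knockout libraries and 0.118 to 0.214 in the wild-type libraries. Des had 0.142 counts for each Tnnt2 count in knockout library 4, within the range of the other 9. Ckm, also on the ventricular marker list, was at 969 CPM in knockout library 4, against 305 to 478 CPM in the other knockout libraries. The other 11 fast skeletal muscle markers summed to 35.1 CPM there, against 6.02 to 19.8 CPM in the other knockout libraries, and their part in its values was not tested. These ratios were chosen after the values were seen.

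**Figure D4:**
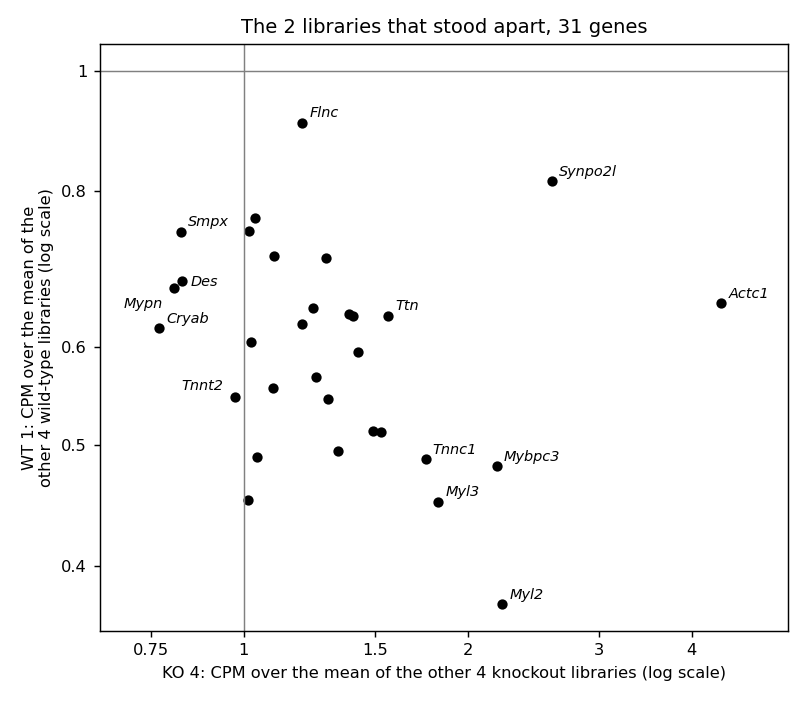
Each point is 1 of the 31 genes. The horizontal axis gives its CPM in knockout library 4 over the mean of the other 4 knockout libraries and the vertical axis its CPM in wild-type library 1 over the mean of the other 4 wild-type libraries, both on log scales. All points lie below 1 on the vertical axis, while on the horizontal axis they run from 0.769 for Cryab to 4.39 for Actc1.

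Promoter sequences are shown for 5 members that were high in knockout library 4 relative to the other knockout libraries. They are also shown for 2 of the members that were low there. All were chosen after those values were seen. RefSeq windows from 250 bases before to 50 after a transcript start (GRCm38.p6) were found for 26 of the 31 members, 35 windows in all, and each matched GRCm39 exactly once. The 250 bases before the start are given 5′ to 3′ on the gene's strand with GRCm39 positions, and capitals mark matches on either strand to the MEF2 site, the CArG box bound by serum response factor, or the MCAT element (CATTCC) bound by TEAD factors. Actc1 lies on the minus strand at chr2:113883357-113883606, Synpo2l on the minus strand at chr14:20718423-20718672, Mybpc3 on the plus strand at chr2:90948239-90948488, Myl3 on the plus strand at chr9:110592496-110592745, Tnni3 on the minus strand at chr7:4525528-4525777, Des on the plus strand at chr1:75336686-75336935 and Smpx on the plus strand at chrX:156481719-156481968. The RefSeq start of Actc1 lies 687 bases from the start of the GENCODE canonical transcript, and that of Myl2, not printed for this reason, 7596 bases.
Actc1: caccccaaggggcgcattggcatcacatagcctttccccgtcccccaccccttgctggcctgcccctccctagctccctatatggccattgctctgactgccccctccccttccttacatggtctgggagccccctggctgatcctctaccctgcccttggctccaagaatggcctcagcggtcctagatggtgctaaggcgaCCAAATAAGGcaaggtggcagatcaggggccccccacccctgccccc
Synpo2l: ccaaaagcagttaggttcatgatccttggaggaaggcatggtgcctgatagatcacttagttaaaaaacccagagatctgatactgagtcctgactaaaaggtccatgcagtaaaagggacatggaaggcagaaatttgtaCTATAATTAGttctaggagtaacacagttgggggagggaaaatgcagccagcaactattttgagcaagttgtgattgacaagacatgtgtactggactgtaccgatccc
Mybpc3: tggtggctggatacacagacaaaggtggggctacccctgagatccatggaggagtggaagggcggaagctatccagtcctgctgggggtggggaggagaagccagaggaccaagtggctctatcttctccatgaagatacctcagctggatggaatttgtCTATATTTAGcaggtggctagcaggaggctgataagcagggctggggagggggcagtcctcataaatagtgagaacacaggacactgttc
Myl3: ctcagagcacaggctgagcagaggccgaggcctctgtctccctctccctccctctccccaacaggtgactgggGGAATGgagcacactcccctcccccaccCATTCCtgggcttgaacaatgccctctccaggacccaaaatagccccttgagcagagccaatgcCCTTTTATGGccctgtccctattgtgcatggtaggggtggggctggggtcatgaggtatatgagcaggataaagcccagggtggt
Tnni3: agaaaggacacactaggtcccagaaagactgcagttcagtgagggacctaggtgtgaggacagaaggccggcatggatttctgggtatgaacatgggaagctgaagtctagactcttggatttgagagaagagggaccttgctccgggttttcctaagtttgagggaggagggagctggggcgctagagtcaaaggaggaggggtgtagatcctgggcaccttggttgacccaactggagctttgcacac
Des: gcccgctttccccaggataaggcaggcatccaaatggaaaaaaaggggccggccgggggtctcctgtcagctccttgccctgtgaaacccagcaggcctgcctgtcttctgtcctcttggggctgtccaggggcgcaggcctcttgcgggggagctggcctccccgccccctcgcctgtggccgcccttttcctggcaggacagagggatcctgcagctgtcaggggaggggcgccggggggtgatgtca
Smpx: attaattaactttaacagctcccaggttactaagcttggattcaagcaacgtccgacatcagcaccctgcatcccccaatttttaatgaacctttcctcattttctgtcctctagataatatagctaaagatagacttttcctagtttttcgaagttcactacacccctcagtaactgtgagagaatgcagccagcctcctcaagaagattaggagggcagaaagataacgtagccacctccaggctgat

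Over the whole 300-base windows, the MEF2 site was found in 5 of 26 members, or 19.2%, against 3.7% of all 27025 genes in the RefSeq table. The CArG box was found in 5 of 26 members, or 19.2%, against 1.81% of all genes. The MCAT element was found in 9 of 26 members, or 34.6%, against 16.6% of all genes. The E-box CANNTG was in 21 of 26 members (80.8%, against 75% of all genes), and TATAAA on the gene's strand in 1 of 26 (3.85%, against 9.77%). Matches to 2 different motifs overlapped in 1 of the 35 windows. Of the 8 members at 1.5 times or more in knockout library 4, all of which had a window, 5 held a MEF2 site or a CArG box (Actc1, Synpo2l, Mybpc3, Myl3 and Ttn) and 3 did not (Myl2, Tnnc1 and Tnni3). Of the other 18 members with a window, 5 held one. These were Ldb3, Xirp2, Myoz2, Myom1 and Nebl. In knockout library 4 they stood at 1.02, 1.02, 1.04, 1.20 and 1.43 times the mean of the other knockout libraries. Tnni3, Des and Smpx had no match to MEF2, CArG or MCAT letters in these windows. Mypn and Tnnt2, not printed, were also below the mean of the other knockout libraries in knockout library 4, at 0.806 and 0.973 times. Each held an MCAT element, so the printed sequences do not stand for all members that were low in that library. The nearest windows of Myl2, Nebl and Unc45b lay 7596, 2222 and 3325 bases from the start of the canonical transcript. For these members the counts describe sequence away from that start. A match describes letters in a window and was not measured as binding.

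Summed over the 31 genes, the level was 36597, 32021, 40272, 51768 and 34528 CPM in knockout libraries 1 to 5, against 21987, 34432, 38163, 48566 and 40621 CPM in wild-type libraries 1 to 5. Both groups spread widely around means of 39037 ± 7732 CPM in knockout and 36754 ± 9746 CPM in wild-type hearts. The members took 3.76 ± 0.631% of all counts in knockout and 3.70 ± 0.648% in wild-type libraries. Set against the 10 ventricular marker genes, none of them a member, the libraries lay closer together. These markers include the sarcomere myosins Myh6 and Myh7, so the ratio in part sets sarcomere genes against each other. Of the marker sum, Myh6 and Myh7 held 24290 and 2273 of 56727 CPM in knockout library 4. In knockout library 1 they held 5021 and 7241 of 32262 CPM. The members had 0.913 to 1.13 counts for each count of these markers in knockout libraries, against 0.941 to 1.11 in wild-type libraries. Wild-type library 1 stood at 0.941 and knockout library 4 at 0.913, the lowest ratio of the 10. The coefficient of variation of single members had a median of 15.9% in the knockout and 22.3% in the wild-type group and was larger in the wild-type group for 22 of 31 genes. Without knockout library 4 and wild-type library 1 the medians were 13.1% in the knockout and 11.7% in the wild-type group, and it was larger in the wild-type group for 17 genes.

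**Figure D5:**
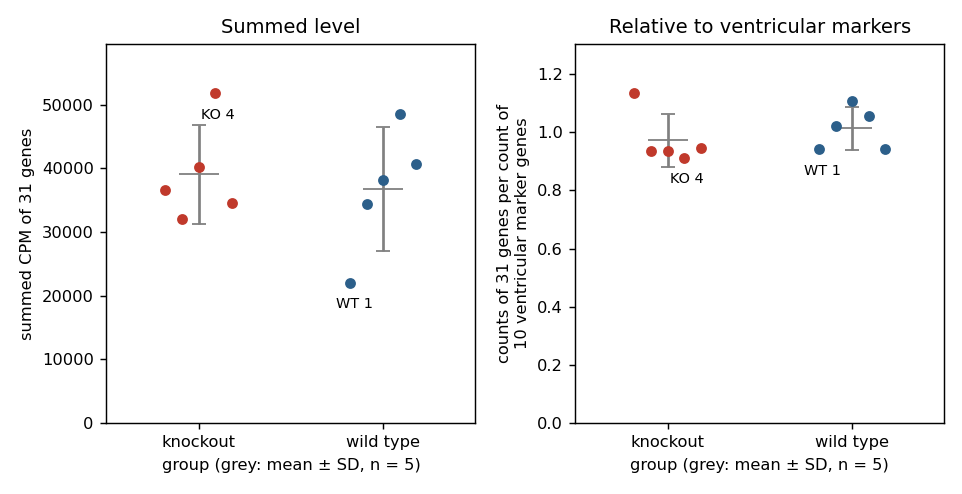
Left, summed CPM of the 31 genes in each library; right, counts of the 31 genes for each count of the 10 ventricular marker genes; points are libraries, grey bars the mean ± SD of 5. Wild-type library 1 is lowest and knockout library 4 highest on the left, while on the right wild-type library 1 is at 0.941 and knockout library 4, at 0.913, is the lowest.

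Other genes of the sarcomere and its surroundings gave 0 calls by edgeR as well, against 0.353% of all genes. In the list of further sarcomere genes, 43 of 46 were tested, 25 above 0 and 18 below, with a median log2 fold change of 0.04. In that list 3 genes had an unadjusted p under 0.05, all lower in knockout hearts, where 6.86% of all genes had one. Without the 2 libraries 22 were above 0, against 50% of all genes. In that fit 7 of the 43 had an unadjusted p under 0.05, 2 higher and 5 lower, against 7.8% of all genes. Ankrd1, a stress-induced titin-binding ankyrin repeat protein of the I-band, stood at 571, 555, 385, 615 and 626 CPM in the knockout libraries and at 709, 741, 878, 907 and 537 CPM in the wild-type libraries. All knockout values of Ankrd1 were below 4 of the 5 wild-type values (log2 fold change -0.46 with a standard error of 0.17, adjusted p = 0.666 by edgeR). Its relative Ankrd23 had 150 ± 29.3 CPM in knockout and 204 ± 52.6 CPM in wild-type hearts. Without knockout library 4 and wild-type library 1 their log2 fold changes were -0.52 and -0.63 (adjusted p = 0.526 and 0.211 by edgeR). Mylk2, the skeletal muscle myosin light chain kinase, was at 18.2 CPM in wild-type library 1 and at 0.129 to 0.779 CPM in the other 9 libraries, and its log2 fold change was -2.92 with all libraries and 0.71 without the 2. Ablim3, an actin-binding LIM protein, had 54.2 ± 5.52 CPM in knockout and 45.02 ± 9.22 CPM in wild-type hearts.

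Among atrial, fetal and skeletal isoforms of sarcomere proteins, 14 of 20 genes were tested and 11 were below 0, with a median of -2.98 that was 0.07 over 12 genes without the 2 libraries. Of the 14, 3 were above 0, against 46.6% of all genes. By edgeR 0 were called, against 0.353% of all genes, and 7 of the 14 had an unadjusted p under 0.05, all lower in knockout hearts, against 6.86%. Without the 2 libraries 3 of the 12 had one, 2 higher and 1 lower, against 7.8% of all genes. With all libraries DESeq2 called 2, both lower in knockout hearts, against 0.707% of all genes. These were Myl7 and Myl4, which encode light chains of atrial myosin. Myl7 stood at 0.0787 to 0.357 CPM in the knockout libraries, against 173, 25.2, 1.71, 0.529 and 0.437 CPM in wild-type libraries 1 to 5. The groups did not overlap, but the gap between them was narrow and at a low level, from 0.357 to 0.437 CPM. Myl4 stood at 0.857 to 1.20 CPM in the knockout libraries, against 251.7, 42.6, 2.52, 1.35 and 0.849 CPM in the wild-type libraries. Both genes are among the 10 atrial markers, and the other 8 summed to 1033 CPM in wild-type library 1 and 267 CPM in wild-type library 2, against 50.7 to 138 CPM in the knockout libraries and 47.0 to 76.8 CPM in the other wild-type libraries. Mybpc1 and Tnni2, of skeletal muscle, were at 44.8 and 49.4 CPM in wild-type library 1, and no other library exceeded 0.984 CPM for either.

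The attachment of myofibrils to the membrane and to neighbouring cells was covered by 33 genes of costameres and intercalated discs. All were tested, and with all libraries 25 were above 0, against 46.6% of all genes (median log2 fold change 0.07). By edgeR 0 were called, against 0.353% of all genes, and 0 had an unadjusted p under 0.05, against 6.86%. Without the 2 libraries 11 were above 0, against 50% of all genes. In that fit 1 had an unadjusted p under 0.05, lower in knockout hearts, against 7.8% of all genes. Vcl, vinculin, stood at 146, 138, 142, 137 and 148 CPM in the knockout libraries, against 101, 131, 134, 137 and 128 CPM in the wild-type libraries. Utrn, utrophin, had 104 ± 8.87 CPM in knockout and 93.4 ± 4.43 CPM in wild-type hearts. Sgcb and Dmd, of the dystrophin complex, had log2 fold changes of 0.22 and 0.20, which were 0.07 and 0.08 without the 2 libraries. Protein quality control of the sarcomere, with small heat shock proteins, ubiquitin ligases and calpains, had 13 of 26 genes above 0 (median -0.00104). Over all genes 46.6% were above 0. In this list 0 were called by edgeR, against 0.353% of all genes. Without the 2 libraries 8 were above 0, against 50% of all genes. In that fit 3 of the 26 had an unadjusted p under 0.05, 1 higher and 2 lower, against 7.8% of all genes. Trim63, the ubiquitin ligase MuRF1, had 159 ± 27.3 CPM in knockout and 197 ± 63.0 CPM in wild-type hearts, and Hsp90aa1, an inducible HSP90 gene, 124 ± 13.2 CPM in knockout and 148 ± 28.7 CPM in wild-type hearts. Their log2 fold changes were -0.31 and -0.26 with all libraries, and -0.52 and -0.08 without the 2. Fbxo40, a muscle F-box protein, and Hspb6, a small heat shock protein, had log2 fold changes of 0.22 and 0.20, which were 0.08 and 0.004 without the 2 libraries. Transcription factors and cofactors of muscle genes had 14 of 22 tested genes above 0, against 46.6% of all genes (median 0.06). Of them 0 were called by edgeR, against 0.353% of all genes. Without the 2 libraries 9 were above 0, against 50% of all genes. Tbx20, a cardiac T-box factor, had 103 ± 4.90 CPM in knockout and 114 ± 6.78 CPM in wild-type hearts (adjusted p = 0.722 by edgeR). Mef2c had 74.8 ± 7.76 CPM in knockout and 67.2 ± 2.05 CPM in wild-type hearts, and Gata4 had 65.0 ± 9.81 CPM in knockout and 55.8 ± 9.74 CPM in wild-type hearts, with a log2 fold change of 0.22 that was 0.03 without the 2 libraries. Csrp2, of the same family as Csrp3, was at 23.6 CPM in wild-type library 1 and at 4.19 to 7.64 CPM in the other 9 libraries.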

How the data were processed

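Bulk RNA was sequenced from 10 heart libraries, 5 p38δ knockout and 5 wild type. Per the labels' protocols, STAR 2.5.2 aligned the reads to GRCm39, and the submitters' processing notes list RSEM 1.3.0. The authors deposited expected counts per gene, all whole numbers, which were used unrounded. Neither the annotation release nor the strand setting is given in the sources used here. Of 78298 identifiers, 78168 matched GENCODE. The 20 pairs of libraries within a group differed by a chi-square per degree of freedom of 8.71 to 162, so none was repeat sequencing of the same library. Whether any of them came from the same heart was not tested.

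Counts were tested with edgeR 4.0.16 in R 4.3.3 (TMM, quasi-likelihood F test, minimum count 10 in filterByExpr, Benjamini-Hochberg adjustment, threshold 0.05). Approximate standard errors were taken as the size of the log2 fold change over the root of F, and intervals use 95% t limits. Single genes were also compared by an exact permutation test of log2(CPM + 1). Alternatives included limma 3.58.1 and DESeq2 1.42.0. Scripts were tested on simulated data. Named genes were all members, Mapk13 and up to 4 genes with the smallest p in each related list. Members and lists were chosen with earlier results of these data known.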

Additional observations from a re-analysis of the deposited data

Results flagged for a closer look

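A library was picked out where its gap to the nearest other library of its group exceeded the 95% critical value of Dixon's test for 5 samples, 0.71 of the group's range. Of 108 group tests, 16 met this, where chance gives about 1 in 20 groups. The libraries are not independent across genes, because 1 unusual library can be picked out many times.

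Among the members, knockout library 4 was high for Myl2 (5645 CPM), Actc1 (4990 CPM) and Synpo2l (158 CPM). Wild-type library 1 was low for Xirp1 (130 CPM), Des (899 CPM) and Unc45b (102 CPM). No member had a library picked out in both groups.

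Outside the members, wild-type library 1 was high for the atrial light chains Myl7 (173 CPM) and Myl4 (251.7 CPM) and for the skeletal muscle genes Mylk2 (18.2 CPM), Mybpc1 (44.8 CPM) and Tnni2 (49.4 CPM). It was also high for Hsp90aa1 (199 CPM), Csrp2 (23.6 CPM) and Mapk13 (6.41 CPM), and low for Vcl (101 CPM). Knockout library 1 was the highest of its group for Mybpc1, at 0.984 CPM.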

How the results depend on the processing

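No member was called under the 20 alternative settings, which included DESeq2 and limma voom, and the lowest adjusted p of a member was 0.562 (Myl2, without wild-type library 1 and knockout library 4). The direction was less settled. The median log2 fold change of the members was 0.02 on library totals alone (17 above 0, all genes -0.12), -0.07 with voom quality weights (8 above 0), and -0.07 with scaling to ventricular markers (6 above 0, all genes -0.20), an alternative chosen after seeing the data. Leaving out 1 library at a time gave medians from -0.06 to 0.18. Myh7b, Tcap, Xirp1, Xirp2, Cryab and Smpx had 1 sign under all 20 settings. The causes were not tested.

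Over all genes, edgeR called 59, DESeq2 118, ventricular marker scaling 25, and leaving out 1 library 47 to 75. Members called stayed at 0 to 0, and so did every related list in edgeR, while DESeq2 called 2 of the isoform list. The log2 fold change of Mapk13 was -1.76, 1.80 with voom quality weights, 2.13 without wild-type replicate 1 (adjusted p = 0.0443 by edgeR), and without any other single library ranged from -2.06 to -1.61, with -2.45 under ventricular marker scaling. No paired analysis was possible because the labels give no replicate numbers shared between the groups.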
